A study of Rattus norvegicus with 8 samples.

Results

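Described here are 9 genes used as markers of progenitor-like adventitial fibroblasts, out of 37209 genes in the count table. They are Pi16, Dpt, Cd34, Clec3b, Scara5, Mfap5, Dpp4, Pcolce2 and Col14a1. Their RNA was measured in arteries whose cells were not separated, and other cell types carry some of these genes. The genes were chosen by symbol and not by a threshold on the counts. The table holds 8 of them by symbol, with Pcolce2 written as PCOLCE2. Clec3b was found by its NCBI gene number, and the table lists it as LOC100912012. The 9 genes were put together when the comparison of injured with control arteries was already known. Their changes are therefore given as a description, without p-values and with only whether each met the study's criteria, and the number of members that changed is not read as evidence about these cells.

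The adventitia is the outer coat of an artery, a loose layer of fibroblasts, collagen, small vessels and nerves. Fibroblasts that carry Pi16, Cd34 and Dpp4 lie around vessels in many tissues and are regarded as a reserve from which other fibroblasts can arise. After balloon injury of an artery, adventitial fibroblasts are known to divide and to take on features of matrix-producing myofibroblasts. Of the 9 genes, 5 code for proteins of the cell surface or secreted factors, and the other 4, Dpt, Mfap5, Pcolce2 and Col14a1, for proteins that build or process the extracellular matrix (ECM).

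mRNA was sequenced from carotid arteries of male Sprague-Dawley rats that weighed 400 g on average. In the injured group (n = 4), the intima of the left carotid artery had been damaged with a balloon catheter 2 weeks before harvest. The control group (n = 4) was the uninjured right carotid artery, so the controls also came from rats that had undergone anesthesia, surgery and healing on the other side. The labels call the right artery a self-control but do not say which injured artery shares a rat with which control, and p-values measure only the spread between these libraries.

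The libraries held 11459632 to 16658089 counts. Levels are given as CPM, counts divided by the library size and put on a common scale, with library sizes adjusted by edgeR's TMM factors on the assumption that most genes do not change. A level of 3 counts corresponded to 0.18 to 0.262 CPM by library total, and this floor covers counting error only. One protocol field of the labels names brain cortex, whereas the tissue labels name the carotid artery. The 10 smooth muscle marker genes summed to between 11616 and 55233 CPM in each library. Control artery 4 stood apart, since 10 sympathetic neuron genes summed to 11795 CPM there and to 16.5 to 24.1 CPM in the other controls. In injured artery 3 the same genes summed to 2745 CPM, against 17.8 to 197 CPM in the remaining injured arteries. Over the genes kept for testing, the log2 CPM of control artery 4 correlated at 0.83 to 0.852 with the other controls. Its correlation with injured artery 3 was higher, at 0.917. The other controls correlated at 0.976 to 0.978 with each other.

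The comparison of injured with control arteries asks which genes of the vessel wall change during neointimal hyperplasia. Pi16 and Pcolce2 were lower in the injured arteries, to 34% and 23.6% of the control level in the fit. Dpt and Dpp4 were higher, 4.1-fold and 4.47-fold. The other 5 members, Cd34, Clec3b, Scara5, Mfap5 and Col14a1, had log2 fold changes between -0.46 and 0.00 and overlapped between the groups. All 9 members had enough counts for edgeR's quasi-likelihood test, and 4 met the study's criteria of a false discovery rate (FDR) under 0.05 and a fold change above 2. Of the 14359 genes tested, 10.9% met the criteria, 8.31% as higher and 2.57% as lower in the injured arteries. The same 4 members did not overlap in CPM between the groups, which held for 23.7% of all tested genes, 14.2% as higher and 9.51% as lower. With control artery 4 and injured artery 3 both left out, the same 4 members met the criteria, with log2 fold changes of -1.53 for Pi16, -2.17 for Pcolce2, 2.00 for Dpt and 2.22 for Dpp4. The cells of the arteries were not separated, and the sources used here do not say how much of the outer coat was kept at harvest. Fewer fibroblasts in a sample and less RNA of a gene per fibroblast therefore cannot be told apart.

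Pi16 encodes a peptidase inhibitor of the CAP superfamily and is the gene after which this fibroblast population is usually named. The control arteries had 674, 772, 689 and 459.9 CPM of Pi16 (artery 1 to artery 4), and the injured arteries had 359.6, 184, 143 and 197 CPM. Every injured artery lay below every control, and injured artery 1 and control artery 4 were nearest to each other. The mean was 649 ± 133 CPM (SD, n = 4) in the controls and 221 ± 95.4 CPM (SD, n = 4) after injury, a log2 fold change of -1.56 (standard error 0.31). Injured artery 1 had 2.06 times the mean Pi16 level of the other injured arteries. Pi16 was not called when edgeR tested whether the change exceeded 2-fold.

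Pcolce2 encodes an enhancer of the proteinases that cut the C-propeptide from procollagen. Its level was 218, 236, 224 and 114 CPM in control arteries 1 to 4, and 61.3, 43.6, 36 and 46.1 CPM in injured arteries 1 to 4. Every injured artery lay below control artery 4, the lowest control, which had 50.4% of the mean of the other controls. The means were 198 ± 56.6 CPM in the controls and 46.8 ± 10.6 CPM after injury (SD, n = 4 each), and the log2 fold change was -2.08 (standard error 0.27). Without control artery 4 it was -2.28 (standard error 0.17).

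Dpt encodes dermatopontin, an ECM protein that binds decorin and promotes the assembly of collagen fibrils. Control arteries 1 to 4 had 185, 232, 212 and 111 CPM of Dpt, and injured arteries 1 to 4 had 798, 984, 520.2 and 729 CPM. Every injured artery had more than 2 times the Dpt level of the highest control, and injured artery 2 was the highest. The mean was 185 ± 52.9 CPM (SD, n = 4) in the controls and 758 ± 191 CPM (SD, n = 4) after injury, a log2 fold change of 2.03 (standard error 0.28).

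Dpp4 encodes CD26, a surface peptidase that removes dipeptides from the amino end of chemokines and peptide hormones. It was the member with the fewest counts, 26, 52, 65 and 53 in control arteries 1 to 4 and 402, 180, 262 and 151 in the injured ones. The corresponding levels were 1.87, 4.26, 4.5 and 3.68 CPM in the controls and 24, 13.1, 14.7 and 12.4 CPM after injury. The groups did not overlap, and injured artery 1 was 1.8 times the mean of the other injured arteries. The log2 fold change was 2.16 (standard error 0.34). Control artery 4 was at 104% of the mean of the other controls for Dpp4, whereas it was at 41.9% to 64.6% for the other 8 members.

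**Figure D1:**
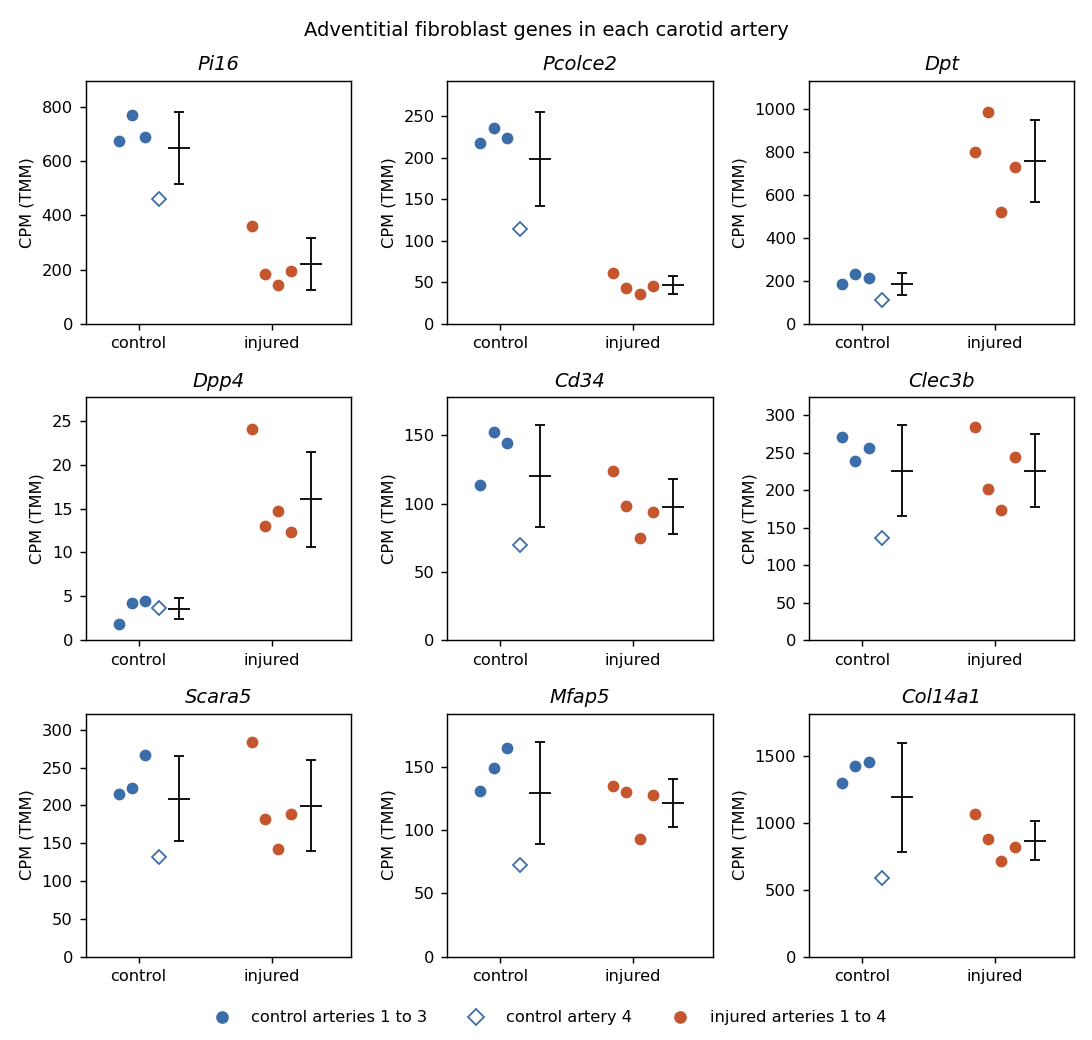
CPM of the 9 members in each artery (vertical axis, linear from 0, a scale per gene), with control arteries in blue, control artery 4 as an open diamond and injured arteries in orange; black bars give the mean ± SD (n = 4). Pi16 and Pcolce2 lie lower and Dpt and Dpp4 higher in every injured artery than in any control, and control artery 4 is the lowest control for 8 of the 9 genes.

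Cd34 encodes a sialomucin of the cell surface that fibroblasts share with endothelium and blood progenitors. The controls had 114, 152, 144 and 69.8 CPM of Cd34 and the injured arteries had 124, 98, 75.1 and 94.2 CPM, so that the injured arteries lay inside the control range. Its log2 fold change was -0.29 (standard error 0.26). Col14a1 encodes a FACIT collagen, which sits on the surface of collagen fibrils, and had 1300.4, 1425, 1459 and 585 CPM in the controls. In the injured arteries it had 1069, 877, 713 and 818 CPM, below 3 of the controls and above control artery 4. The log2 fold change of Col14a1 was -0.46 (standard error 0.29). Without control artery 4 it was -0.69 (standard error 0.14) and met the FDR criterion but not the fold criterion.

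Clec3b encodes tetranectin, a lectin that binds plasminogen. It had 271, 239.7, 257 and 137 CPM in the controls and 284, 202, 174 and 244 CPM in the injured arteries, and the fitted log2 fold change was 0.00 (standard error 0.24). Scara5 encodes a scavenger receptor that takes up ferritin, with 215, 223, 266 and 131 CPM in the controls and 284, 182, 142 and 189 CPM after injury. Its log2 fold change was -0.07 (standard error 0.27). Mfap5 encodes a glycoprotein of the microfibrils that scaffold elastic fibres. It had 131, 149.6, 165 and 72.5 CPM in the controls, 135, 130.4, 93.2 and 128 CPM in the injured arteries and a log2 fold change of -0.09 (standard error 0.25). In all 3 genes the groups overlapped. With library totals alone as the scale, which shifted the median of all genes by 0.17, the log2 fold changes of Scara5 and Mfap5 were 0.12 and 0.10 in place of negative values. Without control artery 4 the log2 fold changes of Clec3b, Scara5 and Mfap5 were -0.18, -0.24 and -0.29, with standard errors of 0.17, 0.22 and 0.15, and none was called.

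**Figure D2:**
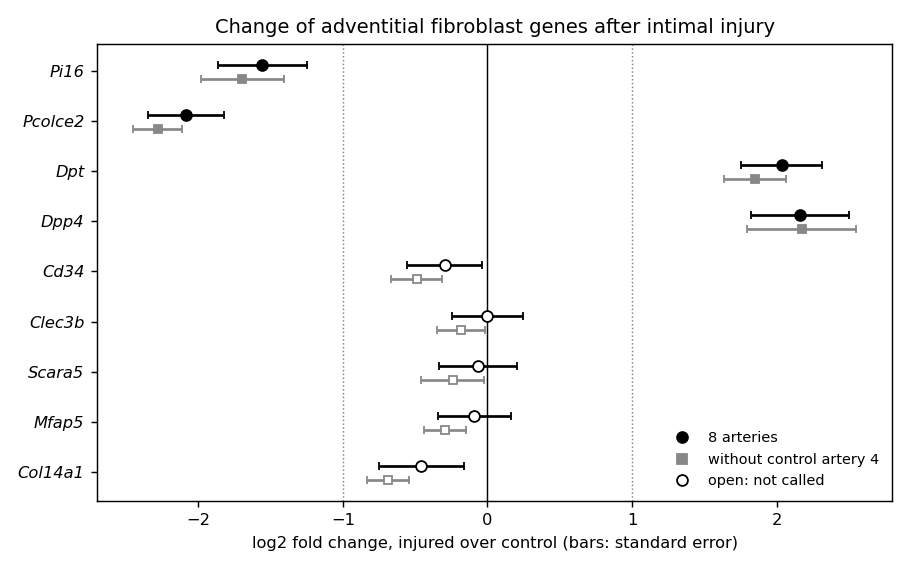
Log2 fold change of each member, injured over control (horizontal axis), from edgeR with all 8 arteries (black circles) and without control artery 4 (grey squares); bars are standard errors, filled symbols met both criteria and dotted lines mark a fold change of 2. The 2 lower and 2 higher genes stand beyond the dotted lines in both fits, and the other 5 stay between them.

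The start regions of the members were read from RefSeq (GRCr8 build), from 250 bases before to 50 after the annotated start of the gene. The table used holds 6 of the 9 members, all but Clec3b, Scara5 and Col14a1. Short motifs were searched on both strands. The letters TATAAA of a TATA box were found in 14.2% of 33469 start regions, and the GC box GGGCGG in 33.1%. The promoter element CCAAT was found in 37.5%, and the AP-1 element TGACTCA in 4.63%. Among the 6 members, Dpt held the TATAAA match, Pcolce2, Cd34 and Pi16 held GGGCGG, Dpt, Dpp4 and Mfap5 held CCAAT, and TGACTCA was not among these letters. Shown in capitals within 30 bases is the upstream match nearest to the start in each of 3 members, one higher (Dpt), one lower (Pcolce2) and one not called (Cd34). All 3 genes are on the plus strand, and no printed match overlaps another. The Dpt stretch is chr13:79656302-79656331, with TATAAA from base -29. The Pcolce2 stretch is chr8:105073023-105073052, with GGGCGG on the opposite strand at base -53. The Cd34 stretch is chr13:109008729-109008758, with GGGCGG from base -47.
Dpt: gcagcagctgTATAAAagtcagcccagcaa
Pcolce2: tcccccgcggCCGCCCaggggacaggctgt
Cd34: cccctgcgcaGGGCGGaggagcgcgtcccg
A match describes the letters only.

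The arteries of a group were ordered alike by most members. Control artery 4 was the lowest control for 8 of the 9 genes, against 42.4% of 13006 tested genes with a mean above 1 CPM in the other controls. Its median level relative to those controls was 0.962 over these genes and between 0.419 and 0.646 for the 8 members other than Dpp4. Injured artery 1 was the highest injured artery for 8 members, against 21.7% of the same genes, and Dpt was the exception. Injured artery 3 was the lowest for 8 members, all but Dpp4, against 31.9% of the same genes. The 9 genes are not independent of each other, and these counts were not tested.

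General fibroblast genes moved with this order. This list holds 12 genes of fibroblasts in most tissues, among them Pdgfra, the PDGF receptor of mesenchymal cells, Dcn (decorin), Lum (lumican) and Col1a1, and 10 had enough counts for the test. Their mean log2 CPM was 9.23, 9.36, 9.47 and 8.2 in control arteries 1 to 4 and 9.11, 8.66, 8.39 and 8.71 in injured arteries 1 to 4. Control artery 4 and injured artery 3 were thus the lowest of their groups here too. Fibroblast genes were not alone in this. The smooth muscle markers summed to 19084 CPM in control artery 4 and to 41028 to 55233 CPM in the other controls. Myh11, a smooth muscle gene, was highest in injured artery 1 (5060 CPM) and lowest in injured artery 3 (2739 CPM) among the injured arteries. Macrophage markers differed, with 193 CPM in control artery 4 and 184 to 254 CPM in the other controls. The group means of the fibroblast list were 9.06 ± 0.58 and 8.72 ± 0.30 (SD, n = 4). That list itself contained genes that fell, so it is not a constant reference.

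Each member was then set against that mean in the same library, as the difference of its log2 CPM from the mean log2 CPM of the 10 genes. The SD among injured arteries became smaller for 9 of 9 members and that among controls for 8 of 9, all but Dpp4. For Col14a1 the SD among controls was 0.63 as log2 CPM and 0.06 as this difference. Its difference lay between 0.99 and 1.12 in the controls and between 0.95 and 1.12 in the injured arteries, so the groups overlapped. For Cd34 it lay between -2.40 and -2.07 in the controls and between -2.16 and -2.04 after injury. On this scale control artery 4 was the highest control for 8 of the 9 members and the lowest for Col14a1 alone.

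Among the injured arteries Pcolce2 had the smallest SD of the 9 members on this scale, 0.02. Its differences in injured arteries 1 to 4 were -3.17, -3.21, -3.21 and -3.17, and in the controls -1.46, -1.47, -1.66 and -1.37. The group means were apart by -1.70 for Pcolce2 and by -1.27 for Pi16. Dpt and Dpp4 were higher after injury by 2.40 and 2.49 on the same scale. Clec3b, with a fitted log2 fold change of 0.00, was at -1.29 ± 0.19 in the controls and -0.92 ± 0.10 in the injured arteries (SD, n = 4) on this scale, without overlap. This separation does not show a rise of Clec3b, which overlapped in CPM. The mean of the reference list was itself lower after injury, at 8.72 against 9.06 in the controls. How many of all genes separate on this scale was not counted. Scara5 and Mfap5 were higher by 0.28 and 0.31 on it and overlapped. No test was made on this scale, since the members and the reference list share the comparison.

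**Figure D3:**
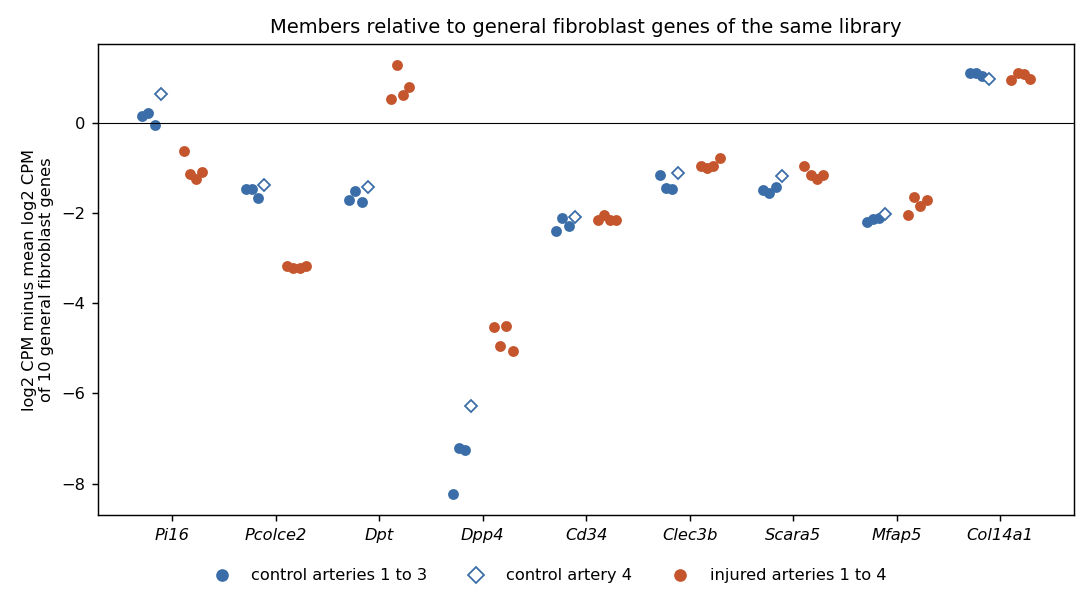
Log2 CPM of each member minus the mean log2 CPM of 10 general fibroblast genes in the same library (vertical axis, log2), with symbols for the arteries as in the plot of CPM levels. Col14a1 and Cd34 overlap between the groups, Pcolce2 forms a tight group near -3.2 after injury, and Dpp4 is the most scattered among the controls.

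Relatives and partners of the members were compared next. Ratios of counts within a library do not depend on the scaling of libraries. Pcolce encodes the better known procollagen C-proteinase enhancer, and the ratio of Pcolce2 to Pcolce was 0.765, 0.705, 0.672 and 0.908 in control arteries 1 to 4. In injured arteries 1 to 4 it was 0.151, 0.0971, 0.104 and 0.117, below every control. Pcolce2 was already known to be lower without overlap, so the separation of this ratio is not a separate result. Pcolce itself had a log2 fold change of 0.56 (standard error 0.29) and was not called (adjusted p = 0.233, edgeR).

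Col12a1 encodes the FACIT collagen closest in structure to Col14a1. It rose by 3.09 on the log2 scale after injury (standard error 0.51, edgeR adjusted p = 0.00539). The ratio of Col14a1 to Col12a1 counts was between 15.3 and 39.6 in the controls and between 1 and 4.58 in the injured arteries. With the rise of Col12a1 already known, this separation is not a separate result either. The ratio of Pi16 to Dpt, which were already known to differ in opposite directions, was between 3.25 and 4.15 in the controls and between 0.187 and 0.451 after injury. Mfap5 to Mfap2, the pair of microfibril-associated glycoproteins, had overlapping ratios of 2.4 to 2.72 and 2.18 to 3.02. The ratios of Dpp4 to Fap, a related peptidase, of Cd34 to Podxl, a related sialomucin, and of Scara5 to Colec12, a related scavenger receptor, overlapped between the groups as well.

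**Figure D4:**
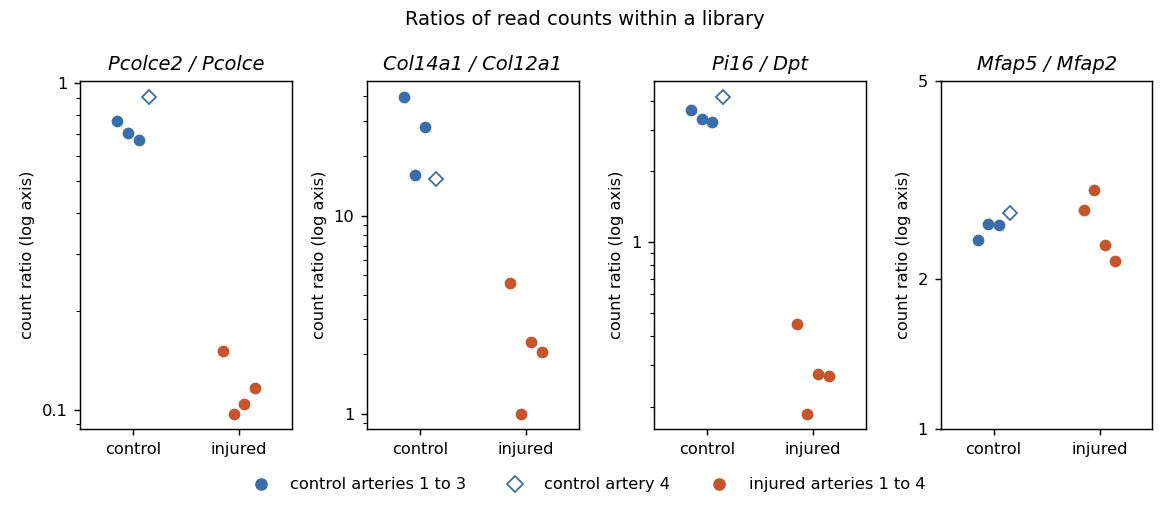
Ratio of read counts of a member to another gene within each library (vertical log axes), with symbols for the arteries as in the plot of CPM levels. Pcolce2 to Pcolce, Col14a1 to Col12a1 and Pi16 to Dpt are lower in every injured artery than in any control, and Mfap5 to Mfap2 overlaps. The changes of Pcolce2, Col12a1, Pi16 and Dpt were known before the ratios were taken.

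The lists that follow were also chosen with earlier results of these data known, so their counts and medians are a description. Of 12 other genes of adventitial progenitor fibroblasts, all tested, 3 fell and 0 rose in edgeR's test, and the median log2 fold change was -0.27 against -0.06 over all tested genes. None was higher with an unadjusted p under 0.05 or by DESeq2 either. Smpd3, a neutral sphingomyelinase, fell by 2.75 on the log2 scale (standard error 0.36, edgeR adjusted p = 0.00206), where the controls had 334 ± 49.2 CPM and the injured arteries 49.5 ± 24.5 CPM (SD, n = 4). Ackr3, an atypical receptor of CXCL12, fell by 1.57 (standard error 0.32, edgeR adjusted p = 0.0127), and Limch1 fell by 1.11. Smpd3, Ackr3 and Limch1 were called in each of the 8 fits that left out 1 artery. The summed level of the list, with these 3 genes included, was 751 to 1148 CPM in the controls. After injury it was 408 to 495 CPM, without overlap. Each of the 3 called genes was itself without overlap, so the sum repeats their fall and does not show a fall of the other genes.

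Among the general fibroblast genes, 4 of the 10 tested fell and 0 rose by edgeR or DESeq2, with a median of -0.43, and 2 were higher at an unadjusted p under 0.05. Gsn, the actin-severing protein gelsolin, fell by 1.77 (standard error 0.32, edgeR adjusted p = 0.00753) and was called whichever artery was left out. Twist2, a mesenchymal transcription factor, fell by 1.40 (standard error 0.37, edgeR adjusted p = 0.0361), and Fbln1 and Dcn fell by 1.25 and 1.15. Twist2, Fbln1 and Dcn were each called in 2 of the 8 fits, those without control artery 4 and without injured artery 1, and the calls were lost when any of the remaining 6 arteries was left out. Without control artery 4 the log2 fold changes of Twist2, Fbln1 and Dcn were -1.62, -1.49 and -1.33. Pdgfra had a log2 fold change of 0.37 and Col1a1 of -0.22, and neither was called.

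Of 12 tested genes of activated fibroblasts and myofibroblasts, 6 rose and 0 fell in edgeR's test, and their median was 1.08. None was lower with an unadjusted p under 0.05 or by DESeq2. Tnc, the matrix glycoprotein tenascin C, rose by 4.97 (standard error 0.56, edgeR adjusted p = 0.00109), and Lrrc15, a membrane protein of activated fibroblasts, rose by 3.26 (standard error 0.42, edgeR adjusted p = 0.00196). Fap, which is also in the peptidase family of Dpp4, rose by 1.67 (standard error 0.34, edgeR adjusted p = 0.0128), where the controls had 16.6 ± 6.13 CPM and the injured arteries 52.9 ± 16.3 CPM (SD, n = 4). Cthrc1, a secreted protein of activated fibroblasts, rose by 1.22 but kept its call in 2 of the 8 leave-one-out fits, those without control artery 3 and without injured artery 3. Smooth muscle cells of an injured artery can also make these proteins, and the cells that held the RNA were not separated.

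Of the procollagen processing genes around Pcolce2, 9 of 10 were tested, 2 rose and 1 fell, with a median of 0.43. Adamts14, a procollagen N-proteinase, rose by 2.29 (standard error 0.25, edgeR adjusted p = 0.00101). Tll1, a C-proteinase of the BMP1 family, rose by 1.99 (standard error 0.22, edgeR adjusted p = 0.000965), and Bmp1 had 0.43 and was not called. The gene that fell was Fbln1, described above. Among 8 tested proteins of the fibril surface, around Col14a1 and Dpt, Col12a1 and Col16a1 rose and Ogn and Dcn fell, with a median of 0.02. Ogn (osteoglycin) fell by 1.96, but its call was lost without any 1 artery other than control artery 4, without which the log2 fold change was -2.22. Bgn (biglycan) of this list had 0 counts in every library, so no level is given for it.

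Around Mfap5, 1 of 9 tested microfibril genes rose and 0 fell in edgeR's test, with a median of -0.09. One was lower at an unadjusted p under 0.05, Ltbp4, and DESeq2 called it. Fbn2, a fibrillin of growing tissue, rose by 4.15 (standard error 0.59, edgeR adjusted p = 0.00283), and Fbn1 and Mfap2 had log2 fold changes of 0.03 and -0.09. Of 9 tested peptidases and binding partners of Dpp4, Fap and Cxcl12 rose and Cav1 fell, with a median of 0.11. Cxcl12, a chemokine that Dpp4 can cleave, rose by 1.48 (standard error 0.23, edgeR adjusted p = 0.00413), with 121 ± 24 CPM in the controls and 339 ± 81.8 CPM after injury (SD, n = 4). Cav1 (caveolin 1) fell by 1.48 and lost its call without injured artery 2 and without injured artery 4, with an adjusted p of up to 0.0524 from edgeR.

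In the plasminogen system, to which Clec3b binds, Plau and Plaur rose by 2.72 and 2.17 among 7 tested genes, with edgeR adjusted p-values of 0.000391 and 0.00148. Plau is the urokinase activator and Plaur its receptor. The median of this list was 0.19. Of the 2 tested relatives of Cd34, 5 of Scara5 with ferritin chains and 5 of Pi16, 0 were called by edgeR or DESeq2, with medians of 0.15, -0.09 and 0.18. At an unadjusted p under 0.05, 1 gene of each of the latter 2 lists was higher, Ftl1 and Crispld1. Podxl had 0.22 and Colec12 0.26. Over the companion lists together, each gene counted once, 14 of 83 tested genes rose and 9 fell. The 9 became 13 without control artery 4, 9 without injured artery 1 and 4 or 5 without any other artery.

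**Figure D5:**
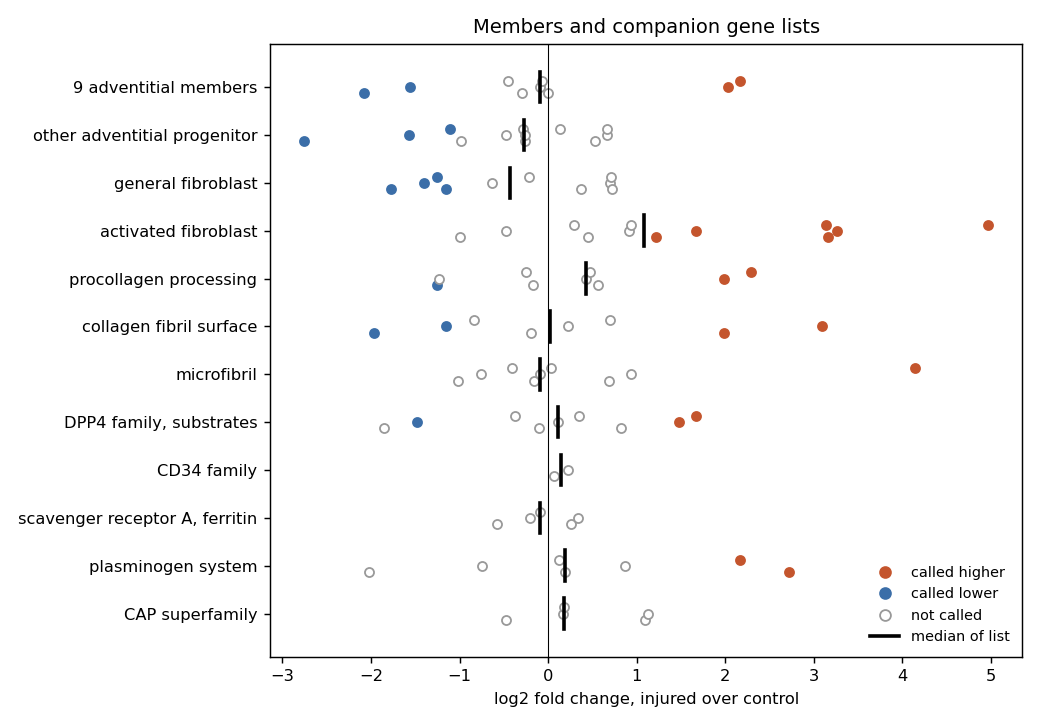
Log2 fold change, injured over control (horizontal axis), of every tested gene of the 9 members and of the companion lists (rows); orange points were called higher, blue points lower, open points were not called and black bars are list medians. The activated fibroblast genes have the highest median, 1.08, and the members split to both sides.

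Marker genes of other cell types changed in the same arteries, and their part in the changes of the members was not tested. For Dpp4, which T cells also carry, 2 of 7 tested T cell markers rose, and the 8 markers summed to 19.9 to 41.4 CPM in the controls and 129 to 167 CPM after injury, mostly from Cd4 with 131 ± 12.8 CPM (SD, n = 4), which macrophages of the rat carry as well. Cd3e had 0.489 ± 0.53 and 1.79 ± 0.53 CPM (SD, n = 4) and was not called. For Dpt and Dpp4, 9 of 10 macrophage genes rose, with sums of 184 to 254 and 775 to 1039 CPM. For Cd34, endothelial genes were split, with Kdr, Plvap, Emcn and Cdh5 higher and Vwf lower of 10 tested, and their sums overlapped at 939 to 2398 and 989 to 1426 CPM.

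For Pi16 and Pcolce2, 7 of 10 smooth muscle genes also fell, with sums of 19084 to 55233 CPM in the controls and 11616 to 18257 CPM after injury. Of these 7 calls, 1 held in all 8 fits that left out an artery, Acta2, Tagln and Mylk held in 1 of 8, the fit without control artery 4, and Myh11 held in 2. All 8 proliferation genes rose, with sums of 10.2 to 18.7 and 87 to 136 CPM, and 5 of the 8 calls held in every such fit, whereas Bub1 held in 1, the fit without injured artery 3. Skeletal muscle genes, of which 7 of 9 tested rose, summed to 84 to 253 CPM in the controls and 296 to 1077 CPM after injury. Adipocyte genes, for fat around the artery, summed to 124 to 891 and 195 to 452 CPM, and 1 of 8 fell. The sums of Schwann and perineurial genes overlapped at 396 to 1500 and 594 to 2311 CPM. Of 8 tested Schwann and perineurial genes and 7 tested sympathetic neuron genes 0 were called by edgeR or DESeq2, and 0 had an unadjusted p under 0.05. Of 3 tested mesothelial genes Msln rose, with sums of 2.02 to 10.1 and 13.3 to 28.9 CPM and Upk3b at 0 counts in every library. In the other marker lists the calls that held in all 8 fits were 3 of 5 in endothelium, 8 of 9 in macrophage, 1 of 2 in T cell, 6 of 7 in skeletal muscle, 1 of 1 in adipocyte and 0 of 1 in mesothelium.

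The members did not share one profile. Likeness was measured as the root-mean-square difference of log2 CPM over the 8 libraries after each gene was centred on its own mean, and 14358 other genes were ranked by it. The nearest member to Pi16 was Pcolce2, at 0.29 and rank 13, and the nearest to Pcolce2 was Pi16, at rank 29. Cd34 was closest to Col14a1 at 0.14 and rank 5, and Scara5 to Clec3b at 0.15 and rank 5. The nearest member to Dpp4 was Dpt, at 0.55 and rank 202, and from Dpt the rank of Dpp4 was 466.

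Among the nearest genes outside the members were Il12a (0.21) and Gsn (0.22) for Pi16, and Ntn1 (0.12) and Cgnl1 (0.15) for Pcolce2. Cpxm2 (0.18) was near to Dpt, and the nearest to Dpp4 were Clec10a and Gpr160 (both 0.30). Cd34 was nearest to Sntb2 and Lrp6 (both 0.12), and Col14a1 to Dchs1 (0.05) and Cd302 (0.08). Clec3b was nearest to Htra4 (0.08), Scara5 to LOC102547242 and Htra4 (both 0.14), and Mfap5 to Prkd3 (0.07) and Plekha2 (0.08). These distances are a description over 8 libraries, and nothing is drawn from them about function.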

How the data were processed

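Carotid arteries of rats were sequenced 2 weeks after intimal injury (4 injured, 4 control). The authors deposited raw counts per gene symbol. HISAT2 2.0.4 is named in the submitters' processing notes, and the counting tool, genome build and strand setting are not given in the sources used here, so overlapping genes cannot be told apart. LOC102546371 overlaps Dpt and LOC102550245 overlaps Cd34 in the RefSeq annotation, with at most 13 and 44 counts. Genes that overlap Pi16, Scara5, Dpp4, Pcolce2 and Col14a1 there are not among the counted genes, so their share of the reads is not known. All 8 columns were assigned by their labels. Genes with too few counts were removed by filterByExpr, which left 14359 of 37209. The groups were compared by the quasi-likelihood test of edgeR 4.0.16 (R 4.3.3) after TMM scaling, without a covariate and with Benjamini-Hochberg adjustment over all tested genes. A call needed both an FDR below 0.05 and a change of more than 2-fold, which are the criteria the study applied with DESeq. Standard errors were taken from the F statistic. Log2 CPM used a prior count of 2. Scripts were tested on simulated data. Alternatives were DESeq2 1.42.0, RLE factors, library totals only, no filter, at least 10 counts in every library, a replicate block, each artery left out, the FDR alone and edgeR's test for a change above 2-fold. Leaving out both libraries with neuron genes was added after seeing the data.

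The members and lists were chosen with earlier results of these data known. Genes named are all members, the 2 nearest genes to each, up to 2 called genes per direction and companion list, direct relatives of members and markers with at most 3 counts in every library. Other list genes named (Limch1, Fbln1, Dcn, Bmp1, Fbn1, Pdgfra, Col1a1, Bgn, Cthrc1, Ltbp4, Ftl1, Crispld1, Cd3e and the called markers) were picked after their values were seen. A few genes that the rule names are not reported here.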

Additional observations from a re-analysis of the deposited data

Results flagged for a closer look

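For each member, the summed general fibroblast list and the summed marker lists, the gap between the highest or lowest artery and the nearest of the others was compared with the range of its group of 4. The share exceeded Dixon's 95% critical value for 4 samples in 5 of 40 groups, where chance gives about 2 for normally distributed values. The groups share libraries and are not independent of each other. In 3 of the 5 the artery was control artery 4. Among the members this held for Pcolce2 alone, where control artery 4 had 114 CPM against 218 CPM in the nearest control, a share of 0.851. For sympathetic neuron genes the share was 0.999 for control artery 4 (11795 against 24.1 CPM) and 0.934 for injured artery 3 (2745 against 197 CPM). For mesothelial genes it was 0.881 for control artery 4 (10.1 against 2.98 CPM) and 0.873 for injured artery 2 (28.9 against 15.3 CPM).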

How the results depend on the processing

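Dpt, Dpp4 and Pcolce2 were called under all 17 alternatives, with log2 fold changes of 1.85 to 2.22, 1.90 to 2.34 and -2.28 to -1.89. The FDR alone is among these alternatives, and as a looser rule on the main fit it could not remove a call. Pi16 ranged from -1.90 to -1.37 and lost its call with the test for a change above 2-fold (-1.56), where 1 member in place of 2 was called lower. Uncalled members near 0 changed sign. Clec3b was at -0.0165 with DESeq2, -0.012 with RLE factors, -0.0106 without a filter, -0.0721 with control artery 4 and injured artery 3 both left out, and -0.18 to 0.10 with 1 artery left out. With library totals only, Scara5 was at 0.12 and Mfap5 at 0.0954, and with 1 artery left out they ranged from -0.29 to 0.0667 and from -0.29 to 0.041. The count of companion genes called lower, 9, was 5 with library totals only, 1 with the test above 2-fold, and 4 to 13 with 1 artery left out (13 without control artery 4, 4 without injured artery 2 or 4). The count of marker genes called higher, 31, was 18 with at least 10 counts in every library and 20 with the test above 2-fold. The count of markers called lower, 9, was 0 with the test above 2-fold and 2 to 11 with 1 artery left out (11 without control artery 4, 2 without injured artery 4). The test above 2-fold asks for more than the criteria, and the higher count minimum tests fewer genes; for the remaining settings the cause was not tested.

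Whether arteries of one number deviate together was not settled. Their correlations were positive for numbers 1 and 2 (0.301 and 0.45) and negative for numbers 3 and 4 (-0.52 and -0.416). Numbers 3 and 4 include injured artery 3 and control artery 4, the libraries with neuron genes, so these signs cannot decide the question. Among the controls 1 of 4, and among the injured arteries 2 of 4, correlated best with their own number. With the replicate number as a block the same 4 members were called, with -1.62 for Pi16, -2.06 for Pcolce2, 2.05 for Dpt and 2.15 for Dpp4, and companions and markers called lower were 4 each. Ackr3 was among the companions that lost their call with the block (edgeR adjusted p = 0.054). Dpp4, with 26 to 65 counts per control, had the least depth of the members.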
